A study of Caenorhabditis elegans with 14 samples.

Results

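The insulin-like peptide genes of Caenorhabditis elegans were followed in RNA of wild-type worms and of a strain labelled as a mutant of pycr-1. The RNA was taken from whole lysate (total) and from polysomes. Members were taken by name: an entry of the authors' deposited table counted when its single gene name was daf-28 or ins- followed by a number. This gave 39 members among 38790 entries with 1 gene name, and 41875 entries in all. A further family name, ins-13, shared an entry with the acyl-CoA dehydrogenase gene acdh-2 and was not counted. RNA came from synchronized, egg-bearing worms on day 1 of adulthood, kept at 20 °C on OP50 bacteria. The wild type was Bristol N2. The other strain was labelled pycr-1(wrm22), after the gene for pyrroline-5-carboxylate reductase, which makes proline; what wrm22 changes in that gene is not stated in the labels. Polysomal RNA came from the part of a sucrose gradient where an mRNA carried at least 3 ribosomes. There were 3 libraries each of wild-type total and wild-type polysomal RNA, and 4 each of mutant-labelled total and mutant-labelled polysomal RNA, from about 12000 worms per genotype and replicate.

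Insulin-like peptides are small secreted hormones, released mostly from neurons and the intestine, that act on DAF-2, the only receptor of the insulin and IGF type in the worm. Agonists such as DAF-28, INS-4 and INS-6 activate DAF-2, which through the kinases AGE-1, PDK-1 and AKT keeps the FOXO transcription factor DAF-16 out of the nucleus; this favours growth and reproduction over dauer arrest and long life. Antagonists such as INS-1 and INS-18 oppose that signal.

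The authors' deposited table is the source of the FPKM (fragments scaled by transcript length and by mapped fragments), the log2 fold changes and the adjusted p of each gene below; it held 1 pooled FPKM per gene and group and nothing per library. Whether single libraries of the groups overlapped could therefore not be seen, and the depth of the libraries was unknown. The value after ± is an SE of that log2 fold change. Unless stated otherwise it comes from variances implied by the authors' Cuffdiff test statistics, divided by the libraries of each group. A member was called higher or lower where the authors' q-value, printed here as the adjusted p, was under 0.05. The labels do not say whether replicates were separate cultures, so any spread of libraries behind a p-value here may be technical. How the authors' test modelled that spread cannot be seen from 1 pooled value per gene and group. In the authors' deposited table the FPKM of pycr-1 itself, listed as M153.1, was 4.91 in wild-type total, 12.6 in wild-type polysomal, 20.3 in mutant-labelled total and 40.8 in mutant-labelled polysomal RNA. It was thus higher in the groups labelled pycr-1(wrm22), which did not check the label, and every direction between the strains below rests on that label.

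The 39 genes were small and dispersed. In the Ensembl annotation of build WBcel235, the build of the deposited coordinates, 32 had 2 exons and 7 had 3. The coding length of the 38 annotated as protein coding ran from 204 to 657 bases with a median of 313.5 bases, and ins-38 was annotated as a pseudogene. Of the 39, 15 lay on chromosome II, 10 on I, 5 on III, 4 on IV, 3 on V and 2 on X. In 7 runs with gaps under 50 kb lay 25 of the members, and the longest run by count held 7 genes on chromosome I (14012369 to 14037803). The deposited annotation terms placed 34 members in the extracellular region and gave hormone activity to 32.

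Most members were weakly represented in RNA of whole adults. At 1 FPKM or more were 17 of the 39 in wild-type total, 19 in wild-type polysomal and 20 in each mutant-labelled fraction. ins-19 and ins-38 were listed at 0 in all 4 groups. The highest member stood at the 62.6th percentile of single-name entries above 0 in wild-type total RNA, and at the 69.6th, 73.5th and 81.1st percentiles in wild-type polysomal, mutant-labelled total and mutant-labelled polysomal RNA. No member reached 10 FPKM in wild-type total RNA, 2 did in wild-type polysomal RNA and 3 did in each mutant-labelled fraction. Of the 39, 29 were tested by the authors in at least 1 of the 4 comparisons, 25 in all 4, and 10 in none. The 16 members that stayed below 1 FPKM and were never called had a highest group level between 0 and 0.956 FPKM.

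**Figure D1:**
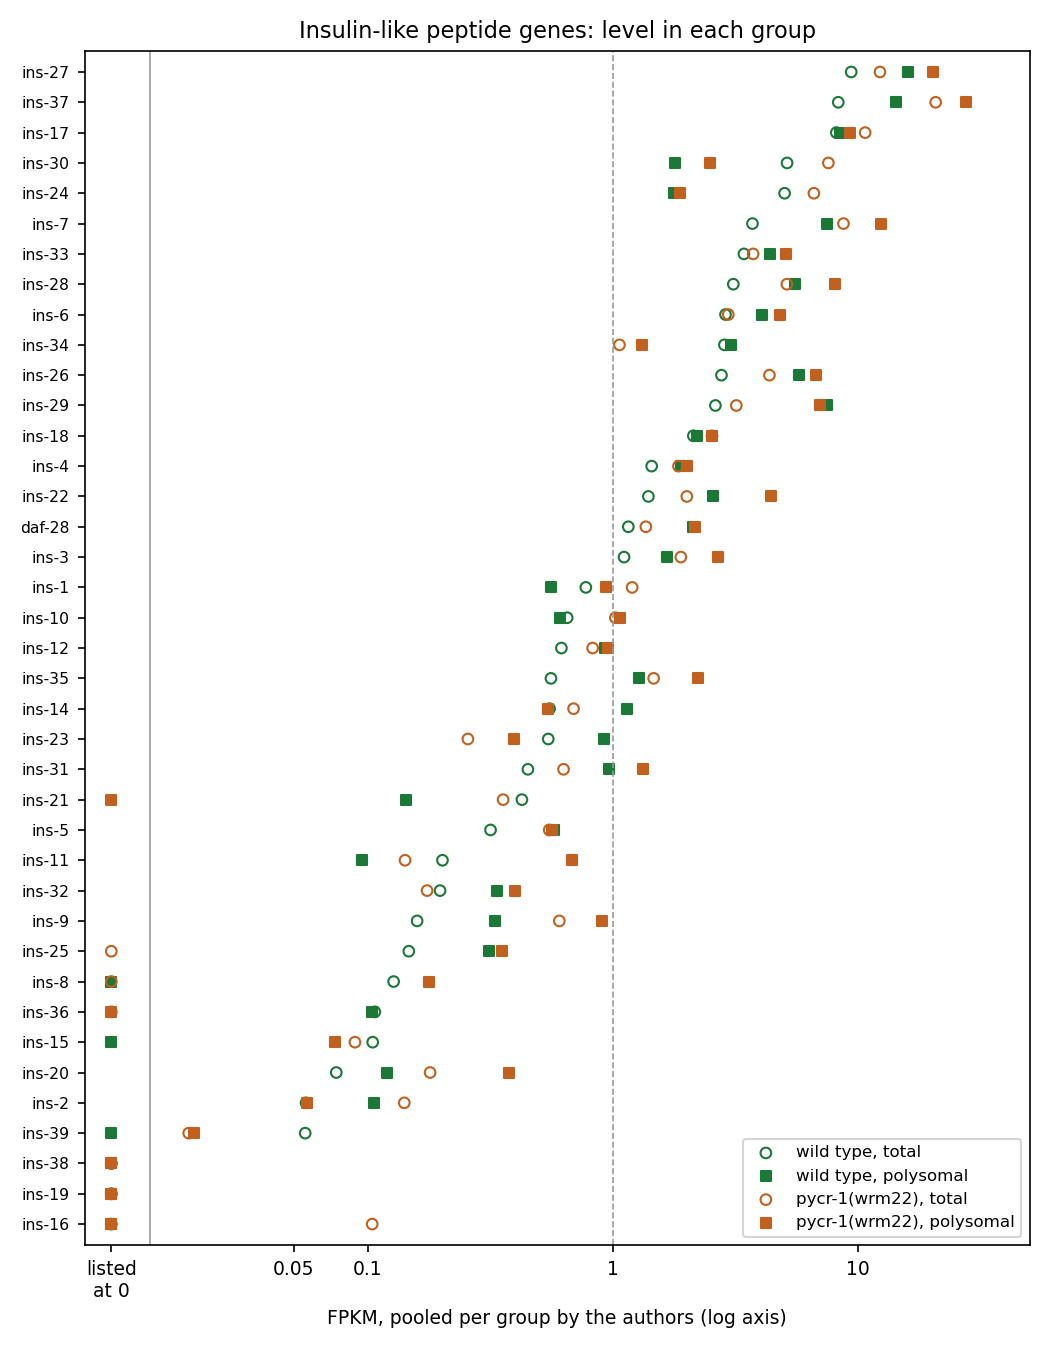
FPKM of the 39 insulin-like peptide genes in the 4 groups (log axis, values of 0 set apart at the left), 1 pooled value per gene and group from the authors' deposited table, ordered by the level in wild-type total RNA. The dashed line marks 1 FPKM. ins-27, ins-37 and ins-17 lead the order in wild-type total RNA, and ins-24 and ins-30 have polysomal values (squares) far to the left of their total values (circles).

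A few genes carried much of the family's RNA. The summed level of the 39 was 70.5 FPKM in wild-type total, 98.7 in wild-type polysomal, 105 in mutant-labelled total and 131 in mutant-labelled polysomal RNA. The top 3 members held 36.5%, 39.1%, 41.6% and 45.7% of these sums. In wild-type RNA the order began with ins-27, ins-37 and ins-17 in both fractions, while in mutant-labelled RNA ins-37 came before ins-27. Neighbours in the order were mostly not separated by their errors. Among members at 1 FPKM or more, the gap to the next lower member passed 2 SE in 1 of 16 neighbour pairs in wild-type total RNA (ins-17 over ins-30), 1 of 18 in wild-type polysomal RNA (ins-37 over ins-17), 1 of 19 in mutant-labelled total RNA (ins-37 over ins-27) and 3 of 19 in mutant-labelled polysomal RNA (ins-37 over ins-27, ins-27 over ins-7, ins-22 over ins-3).

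By role, 10 members are grouped here as agonists (daf-28, ins-3, ins-4, ins-5, ins-6, ins-7, ins-9, ins-19, ins-32 and ins-35) and 5 as antagonists (ins-1, ins-17, ins-18, ins-37 and ins-39), from published genetic work; the other members have no assigned role. The antagonists summed to 19.4 FPKM in wild-type total, 25.4 in wild-type polysomal, 35.1 in mutant-labelled total and 40.3 in mutant-labelled polysomal RNA, and the agonists to 11.5, 19.7, 19.5 and 28.1 FPKM. The antagonists thus held more of the family's RNA than the agonists in all 4 groups, between 25.8% and 33.4% against 16.3% to 21.4%. These sums were dominated by ins-37 and ins-17 among the antagonists and by ins-7 and ins-6 among the agonists, and no test of the sums was made.

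Between the strains, the clearest differences were higher levels of the antagonist gene ins-37 and the agonist gene ins-7 and a lower level of ins-34 in RNA labelled pycr-1(wrm22), in total and in polysomal RNA. In total RNA, 5 of the 26 members tested were higher and 1 was lower, or 19.2% and 3.85%. Over all 15557 entries tested the same call was made for 18.6% higher and 27.9% lower. In polysomal RNA, 2 of 29 were higher and 1 was lower, or 6.90% and 3.45%, against 14.8% higher and 23.9% lower over 14696 entries. The share of members called higher was thus near the background of all entries in total RNA and below it in polysomal RNA. The share called lower was below that background in both. Entries below 5 FPKM, the class of most members, were also called lower less often than all entries, as given next.

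Most members that did not pass the threshold also had a fold above 0. The fold was above 0 for 24 of 26 members in total RNA, with a median log2 fold change of 0.45, and for 24 of 29 in polysomal RNA, with a median of 0.24. The median over all entries was -0.039 in total and -0.073 in polysomal RNA, and over entries with at least 5 FPKM on both sides -0.35 and -0.26. Weak entries as a class had folds above 0 as well. Of entries below 5 FPKM in at least 1 of the groups, 69.8% had a log2 fold change above 0 in total RNA (median 0.36). In polysomal RNA the share was 65.4% (median 0.27). Called higher were 26.4% in total and 20.5% in polysomal RNA, and called lower 8.77% and 9.91%. In this class fell 21 of the 26 members tested in total RNA and 22 of the 29 in polysomal RNA. The part of low level in the members' folds was not tested.

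**Figure D2:**
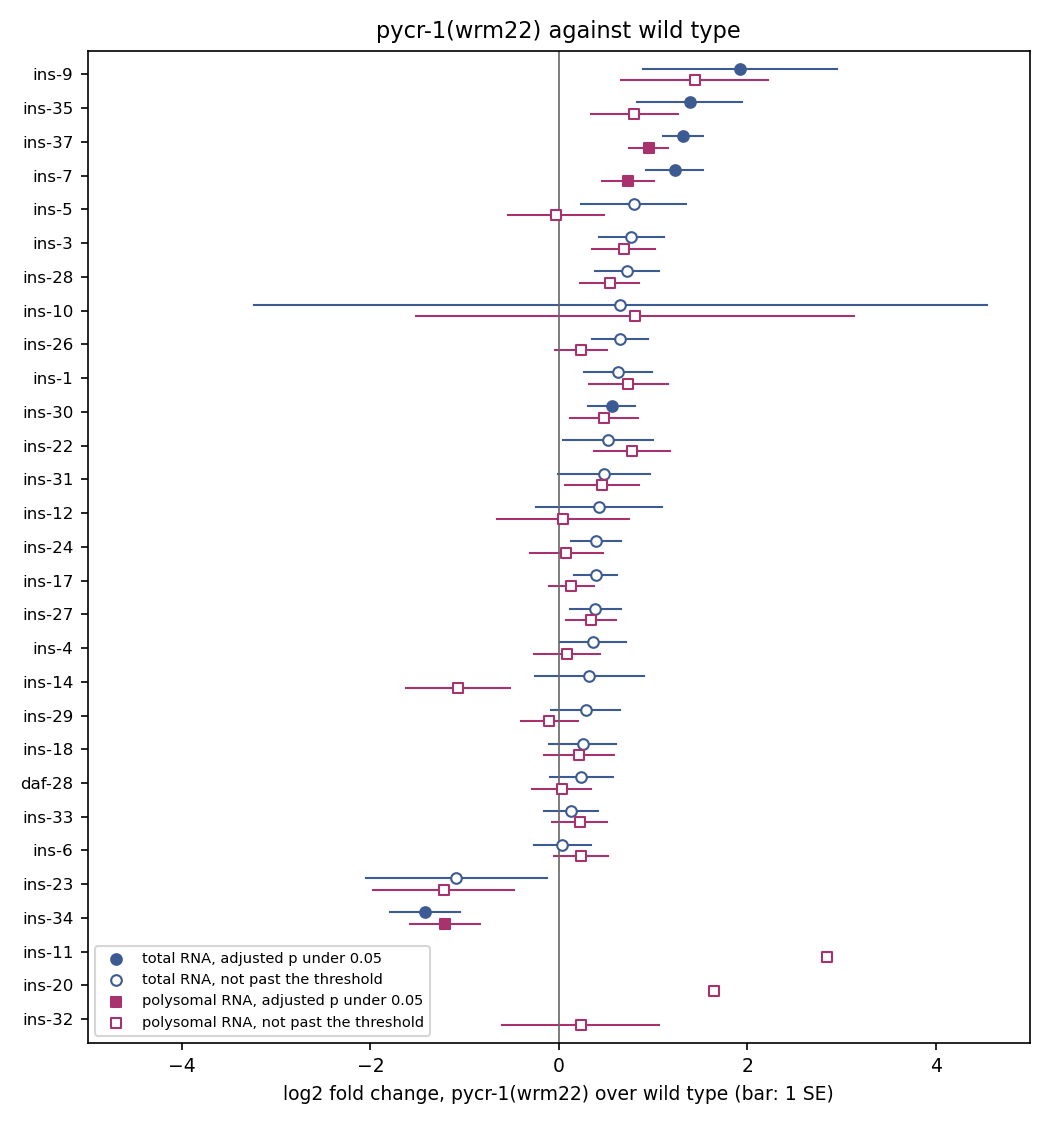
Log2 fold change of pycr-1(wrm22) over wild type for each member tested, in total RNA (circles) and polysomal RNA (squares), from the authors' deposited table. Bars show 1 SE, from variances implied by the authors' test statistics and divided by the libraries, and filled symbols mark an adjusted p under 0.05. ins-37 and ins-7 are filled to the right of 0 and ins-34 to the left in both fractions; ins-11 and ins-20 have no bar because their errors could not be solved.

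Among the antagonists, ins-37 (chromosome II, 13835103 to 13835709, minus strand) had 8.28 FPKM in wild-type total, 14.2 in wild-type polysomal, 20.7 in mutant-labelled total and 27.6 in mutant-labelled polysomal RNA. It was the highest member of the family in both mutant-labelled fractions. In the authors' deposited table the log2 fold change between the strains was 1.32 ± 0.21 in total RNA (adjusted p = 0.000207) and 0.95 ± 0.21 in polysomal RNA (adjusted p = 0.000207), where 0.000207 is the smallest value the table holds. Centred on the medians of entries with at least 5 FPKM, these folds were 1.67 and 1.21.

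The other antagonists gave no call between the strains. ins-17 (chromosome III, 4476888 to 4477583) had 8.14, 8.45, 10.7 and 9.27 FPKM in wild-type total, wild-type polysomal, mutant-labelled total and mutant-labelled polysomal RNA, the order used in the rest of the text, and the authors' deposited table gave log2 fold changes of 0.39 ± 0.22 in total RNA (adjusted p = 0.133) and 0.13 ± 0.24 in polysomal RNA (adjusted p = 0.664), or 0.74 and 0.39 after centring. ins-18 had 2.13, 2.19, 2.53 and 2.54 FPKM, and its log2 fold changes of 0.25 ± 0.35 and 0.21 ± 0.37 lay within 1 SE of 0. ins-1, the worm peptide closest to mammalian insulin, had 0.775, 0.559, 1.20 and 0.933 FPKM. Its folds in the authors' deposited table, 0.63 ± 0.36 in total RNA (adjusted p = 0.141) and 0.74 ± 0.42 in polysomal RNA (adjusted p = 0.131), left a log2 difference of 1 within 2 SE. ins-39 was at most at 0.0556 FPKM and was not tested.

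Among the agonists, ins-7 (chromosome IV, in the run from 9680387 to 9682826 that it shares with ins-8) encodes a peptide known from the intestine, where its gene is repressed by DAF-16. It had 3.70 FPKM in wild-type total, 7.44 in wild-type polysomal, 8.70 in mutant-labelled total and 12.4 in mutant-labelled polysomal RNA. Both mutant-labelled values were above the wild-type value of the same fraction. By the authors' deposited table the log2 fold change was 1.23 ± 0.30 in total RNA (adjusted p = 0.000207) and 0.74 ± 0.28 in polysomal RNA (adjusted p = 0.0186), or 1.58 and 0.99 after centring.

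ins-35 and ins-9, both weakly represented, were called higher in total RNA alone. ins-35 (chromosome V, 20375536 to 20376301) had 0.558, 1.27, 1.46 and 2.22 FPKM in the authors' deposited table, where the log2 fold change stood at 1.39 ± 0.56 in total RNA (adjusted p = 0.0429) and 0.80 ± 0.46 in polysomal RNA (adjusted p = 0.128). ins-9 (chromosome X, 8866238 to 8866640) had 0.159, 0.331, 0.604 and 0.900 FPKM there, and the authors' fit gave 1.93 ± 1.03 in total RNA (adjusted p = 0.0472) and 1.44 ± 0.78 in polysomal RNA (adjusted p = 0.105). Folds of such low values depend on small amounts: with 1 FPKM added to both groups the total RNA folds of ins-35 and ins-9 became 0.66 and 0.47. The call of ins-9 was also lost when the authors' p-values were adjusted within the comparison alone (adjusted p = 0.0510).

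The agonists best known for holding worms out of dauer arrest gave no call between the strains. daf-28 (chromosome V, 19815133 to 19816451) had 1.15, 2.12, 1.36 and 2.17 FPKM, and its log2 fold change was 0.24 ± 0.33 in total and 0.03 ± 0.32 in polysomal RNA. ins-6 had 2.87, 4.05, 2.95 and 4.77 FPKM, with folds of 0.04 ± 0.30 and 0.24 ± 0.29. ins-4 had 1.44, 1.89, 1.85 and 2.01 FPKM, with folds of 0.36 ± 0.35 and 0.09 ± 0.35. An interval of 2 SE on either side of each of these folds spanned 0. Centred, the folds were 0.59 and 0.29 for daf-28, 0.39 and 0.49 for ins-6 and 0.71 and 0.34 for ins-4, and the centred total RNA fold of ins-4 lay more than 2 SE above 0. ins-3, which lies beside ins-4 in a run of 6 members on chromosome II (5988526 to 6011321), had 1.11, 1.65, 1.89 and 2.67 FPKM. Its folds in the authors' deposited table, 0.77 ± 0.35 (adjusted p = 0.0582) and 0.69 ± 0.33 (adjusted p = 0.0718), just missed the threshold. ins-5 of the same run reached 0.576 FPKM at most and ins-32 reached 0.397, and neither was called.

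Of the members without an assigned role, ins-34 was the only 1 of the 39 called lower in the mutant-labelled groups. ins-34 (chromosome IV, 14106584 to 14107715, plus strand) had 2.84, 3.03, 1.06 and 1.31 FPKM, so that both mutant-labelled values lay below both wild-type values. In the authors' deposited table its log2 fold change was -1.42 ± 0.37 in total RNA (adjusted p = 0.00319) and -1.21 ± 0.37 in polysomal RNA (adjusted p = 0.00842), or -1.07 and -0.95 after centring. With 1 FPKM added to both groups the folds became -0.90 and -0.80. The gene overlaps nkcc-1, annotated on the other strand, and the sources used here do not say whether counting used strand, so reads of the pair may not be told apart. In the authors' deposited table nkcc-1, a cation-chloride cotransporter gene, had 61.4, 47.7, 49.98 and 41.6 FPKM, and its folds of -0.30 ± 0.17 in total RNA (adjusted p = 0.135) and -0.20 ± 0.17 in polysomal RNA (adjusted p = 0.299) did not pass the threshold. Without the 3 members whose interval overlaps another gene (ins-10, ins-34 and ins-36, an alternative chosen after seeing the data), 5 members were higher and 0 lower in total RNA, and 2 higher and 0 lower in polysomal RNA.

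ins-30 (in the run of 7 on chromosome I) had 5.12, 1.79, 7.55 and 2.49 FPKM in the authors' deposited table and was called higher in total RNA, the log2 fold change being 0.56 ± 0.25 (adjusted p = 0.0467). In polysomal RNA the authors' table gave a fold of 0.48 ± 0.36 (adjusted p = 0.264). The total RNA call was lost when the authors' p-values were adjusted within the comparison (adjusted p = 0.0504). ins-26 and ins-28 of the same run were close to the threshold in total RNA, where the authors' deposited table gave folds of 0.65 ± 0.30 (adjusted p = 0.0535) and 0.73 ± 0.34 (adjusted p = 0.0670). ins-27, the highest member in wild-type RNA, had 9.35, 15.9, 12.3 and 20.2 FPKM, and its folds of 0.39 ± 0.27 and 0.34 ± 0.26, or 0.74 and 0.60 after centring, were not called.

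The remaining members above 1 FPKM differed less or were less precise. ins-33 had 3.42, 4.37, 3.72 and 5.09 FPKM, with folds of 0.12 ± 0.29 and 0.22 ± 0.29. ins-22, of a run of 3 members on chromosome III (10023804 to 10028600), had 1.39, 2.56, 2.00 and 4.39 FPKM, with 0.52 ± 0.48 and 0.78 ± 0.40. ins-31 had 0.450, 0.966, 0.628 and 1.33 FPKM, with 0.48 ± 0.49 and 0.46 ± 0.39. ins-14 was, besides ins-34 and ins-29, the only member at 1 FPKM or more in a group with a polysomal strain fold below 0. Its levels were 0.551, 1.14, 0.690 and 0.541 FPKM and the authors' folds were 0.33 ± 0.58 in total and -1.07 ± 0.56 in polysomal RNA (adjusted p = 0.108). ins-10 had 0.650, 0.610, 1.02 and 1.07 FPKM in an interval that the table draws across vps-39, and its folds of 0.65 ± 3.89 and 0.81 ± 2.32 carried no usable precision.

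Between the fractions, most members that passed the threshold had a higher level in polysomal than in total RNA. FPKM is relative to all RNA of a fraction, so a fold between fractions compares a gene with the rest of that fraction and is not the share of its mRNA on polysomes. In wild type, 6 of 27 members tested were higher in polysomal RNA and 2 were lower, or 22.2% and 7.41%, against 24.7% and 26.9% of 15266 entries. In the mutant-labelled strain, 9 of 28 were higher and 2 lower, or 32.1% and 7.14%, against 23.9% and 27% of 15425 entries. The share of members called higher was close to the background in wild type and somewhat above it in the mutant-labelled strain, while the share called lower was below it in both. The median log2 fold change of the members was 0.77 in wild type and 0.50 in the mutant-labelled strain, beside 0.046 and 0.029 over all entries. Of the members tested, 24 of 27 and 23 of 28 were in the class of entries below 5 FPKM in at least 1 group. Medians of that class were 0.051 and -0.094. Called higher in the class were 15.9% and 13.3%, and called lower 20% and 24.6%.

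**Figure D3:**
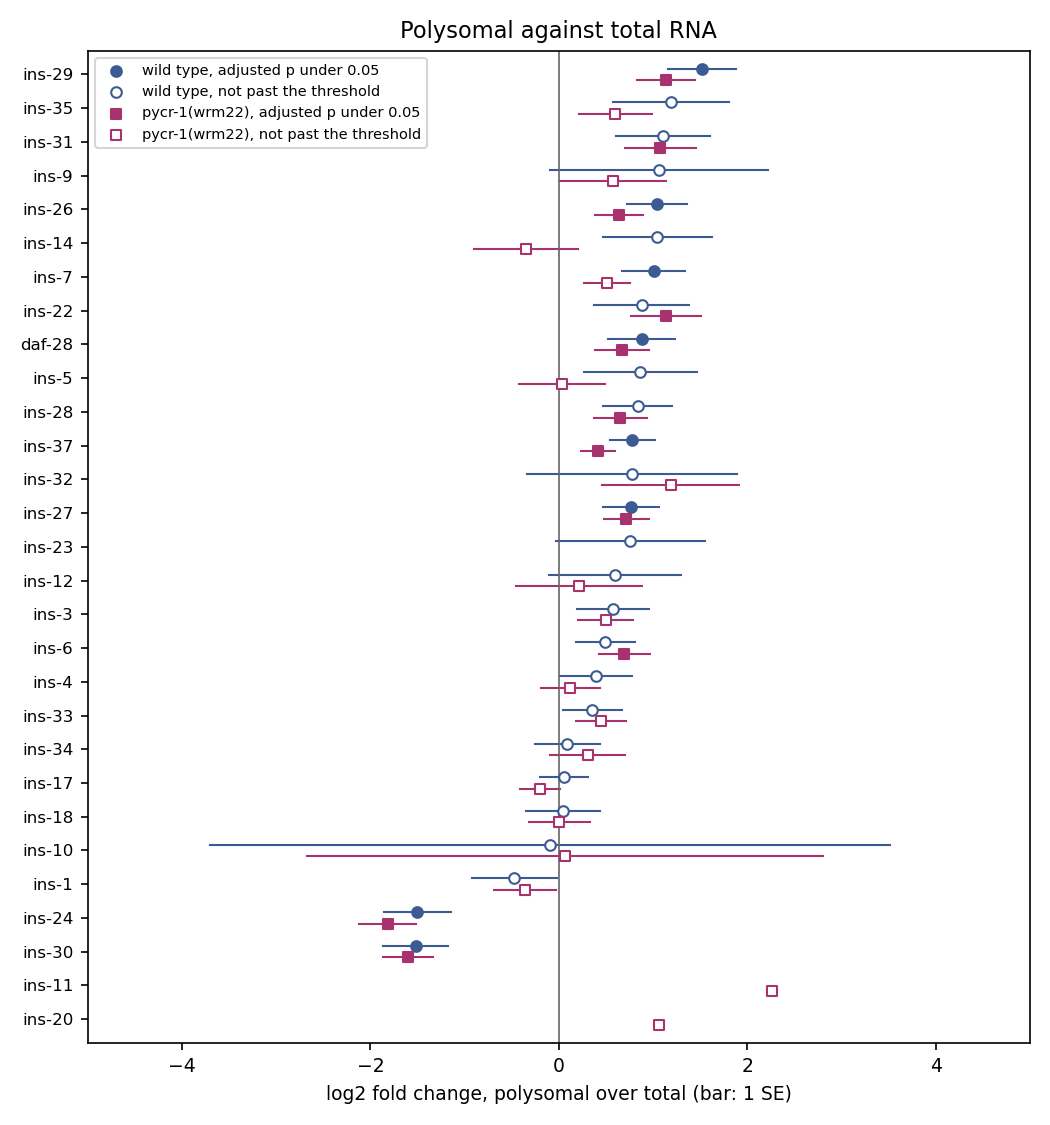
Log2 fold change of polysomal over total RNA for each member tested, in wild type (circles) and pycr-1(wrm22) (squares), from the authors' deposited table. Bars show 1 SE, from variances implied by the authors' test statistics and divided by the libraries, and filled symbols mark an adjusted p under 0.05. daf-28, ins-26, ins-27, ins-29 and ins-37 are filled to the right of 0 in both strains, and ins-24 and ins-30 are filled near -1.5 to -1.8.

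The same call was made in both strains for 7 members: daf-28, ins-26, ins-27, ins-29 and ins-37 were higher in polysomal RNA, and ins-24 and ins-30 were lower. The share of all entries with the same call in both strains was not computed, so no background stands beside this count. In the authors' deposited table the agonist daf-28 had a log2 fold change of 0.88 ± 0.35 in wild type (adjusted p = 0.0321) and 0.67 ± 0.29 in the mutant-labelled strain (adjusted p = 0.0495). The authors' values for the antagonist ins-37 were 0.78 ± 0.24 (adjusted p = 0.00372) and 0.41 ± 0.18 (adjusted p = 0.0417). In the same table of the authors, ins-27 had 0.77 ± 0.29 (adjusted p = 0.0210) and 0.72 ± 0.24 (adjusted p = 0.00571), and ins-26 had 1.05 ± 0.32 (adjusted p = 0.00359) and 0.64 ± 0.25 (adjusted p = 0.0271). Of the members called higher in wild type, ins-29 had the largest fold, from 2.61 FPKM in total to 7.49 in polysomal RNA, a log2 fold change in the authors' table of 1.52 ± 0.36 (adjusted p = 0.000207). In the mutant-labelled strain its level went from 3.18 to 6.99 FPKM, or 1.13 ± 0.31 in the authors' table (adjusted p = 0.00238).

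Other calls were made in 1 strain. By the authors' deposited table the agonist ins-7 was higher in polysomal RNA of wild type, by 1.01 ± 0.33 on the log2 scale (adjusted p = 0.00785), and had 0.51 ± 0.24 in the mutant-labelled strain (adjusted p = 0.0643). In the authors' test of the mutant-labelled strain alone, ins-22 (1.14 ± 0.37, adjusted p = 0.00923), ins-31 (1.08 ± 0.38, adjusted p = 0.0164), the agonist ins-6 (0.69 ± 0.27, adjusted p = 0.0244) and ins-28 (0.65 ± 0.28, adjusted p = 0.0444) passed the threshold. Their wild-type folds were 0.88 ± 0.50, 1.10 ± 0.50, 0.50 ± 0.32 and 0.84 ± 0.37. The mutant-labelled groups had 4 libraries against 3 in wild type, and the errors there were smaller. For ins-17, ins-18, ins-33 and ins-34 the fractions did not differ past the threshold in either strain, and the antagonist ins-1 had folds of -0.47 ± 0.45 and -0.36 ± 0.33.

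Opposite calls stood side by side within the run of 7 members on chromosome I. Along 25.4 kb the genes follow in the order ins-28, ins-29, ins-25, ins-27, ins-24, ins-30 and ins-26. In both strains ins-29, ins-27 and ins-26 were higher in polysomal RNA, and ins-24 and ins-30, which lie between ins-27 and ins-26, were lower. ins-24 had 5.005 FPKM in wild-type total and 1.77 in wild-type polysomal RNA, and 6.59 and 1.87 FPKM in the mutant-labelled fractions. In the authors' deposited table its log2 fold change was -1.50 ± 0.36 in wild type (adjusted p = 0.00106) and -1.82 ± 0.30 in the mutant-labelled strain (adjusted p = 0.000207). ins-30, 3428 bases further on, fell by 1.52 ± 0.35 on the log2 scale in wild type in the authors' table (adjusted p = 0.000736) and by 1.60 ± 0.27 in the mutant-labelled strain (adjusted p = 0.000207).

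ins-26, only 1093 bases beyond ins-30, had 2.77 and 5.71 FPKM in wild-type total and polysomal RNA and 4.34 and 6.75 FPKM in the mutant-labelled fractions. ins-30 and ins-24 thus had a higher FPKM than ins-26 in total RNA but a lower one in polysomal RNA in both strains. ins-28, at the start of the run, had 3.09, 5.52, 5.11 and 8.03 FPKM, and ins-25 stayed at or below 0.353 FPKM and was not tested. The treatment of reads shared by similar genes is not given in the sources used here, and fragments could be divided wrongly between related members of the run.

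**Figure D4:**
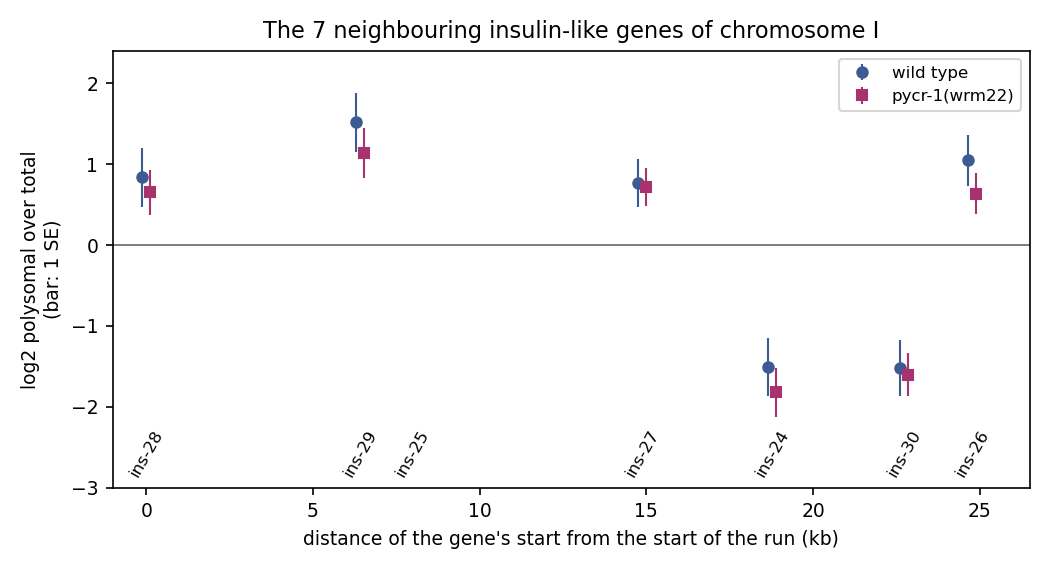
Log2 fold change of polysomal over total RNA (y axis, bars 1 SE) against distance from the start of the run in kb (x axis) for the 7 neighbouring members on chromosome I, in wild type (circles) and pycr-1(wrm22) (squares); ins-25 was not tested and has no symbol. ins-24 and ins-30 sit below -1.4 in both strains, and ins-28, ins-29, ins-27 and ins-26 sit above 0.6.

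The fold between fractions did not differ detectably between the strains for any member. The difference of the 2 log2 fold changes was tested with a two-sided Wald test on variances solved from the authors' test statistics, adjusted by Benjamini-Hochberg over 14665 entries. Of the 26 members tested 0 were called, and 0 had an unadjusted p under 0.05, with the variances as implied or divided by the number of libraries. Over all entries the test as implied called 3 higher (0.0205%) and 1 lower (0.00682%), and 4 in all; with divided variances it called 23. The difference was below 0 for 19 members and above 0 for 7, with a median of -0.20 beside -0.038 over all entries. The smallest p among the members, 0.349, belonged to ins-14, whose difference was -1.40 ± 1.49; with divided variances its SE was 0.80 and its p 0.0809. For ins-37 the difference was -0.36 ± 0.55 and for ins-7 -0.50 ± 0.75, so these errors left room for a lower or a higher relative polysomal level. With divided variances, as used for the folds above, the SE was 0.30 for ins-37 and 0.41 for ins-7. For ins-24 and ins-30 the differences were -0.32 ± 0.86 and -0.08 ± 0.81. In this test ± is the SE from the undivided variances.

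The genes that act on the peptides or after them were counted from lists of receptor and kinase cascade, peptide processing and dense-core vesicle release genes. In total RNA 0 of the 11 cascade genes were higher and 5 were lower in the mutant-labelled strain, with a list median of -0.54. The DAF-2 receptor gene daf-2 went from 34.8 to 23.9 FPKM (-0.54 ± 0.15), the PI3-kinase genes age-1 (-1.01 ± 0.16) and aap-1 (-0.70 ± 0.23) and the kinase gene pdk-1 (-1.01 ± 0.18) were also lower, and so was the entry of the phosphatase gene daf-18, which the table joins with eri-1 (-0.85 ± 0.15). daf-16 had 51.8 and 43.4 FPKM (-0.26 ± 0.15) and was not called. In polysomal RNA 3 of 11 were lower (age-1, aap-1 and daf-18) and 0 higher. The direction of this list was thus the opposite of that of ins-37 and ins-7. Over all entries 27.9% were called lower in total and 23.9% in polysomal RNA. Entries with at least 5 FPKM on both sides, as most cascade genes had, also had medians below 0. These were -0.35 in total and -0.26 in polysomal RNA, beside list medians of -0.54 and -0.30.

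None of the 6 processing genes (egl-3, kpc-1, bli-4, aex-5, egl-21 and sbt-1, which encode proprotein convertases, a carboxypeptidase and a convertase chaperone) was called between the strains in either fraction. Their medians were 0.27 in total and 0.18 in polysomal RNA. Of the 8 vesicle release genes 1 was higher and 1 lower in total RNA, the syntaxin gene unc-64 (0.53 ± 0.18) and the protein kinase C gene pkc-1 (-0.53 ± 0.16), and 0 were called in polysomal RNA. Between the fractions, 7 of the 11 cascade genes were lower in polysomal RNA in each strain, daf-2, age-1, pdk-1 and akt-1 among them. Higher were 3 in wild type (akt-2, sgk-1 and pptr-1) and 2 in the mutant-labelled strain (sgk-1 and pptr-1). Over all entries 26.9% were lower and 24.7% higher in wild type, and 27% and 23.9% in the mutant-labelled strain.

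**Figure D5:**
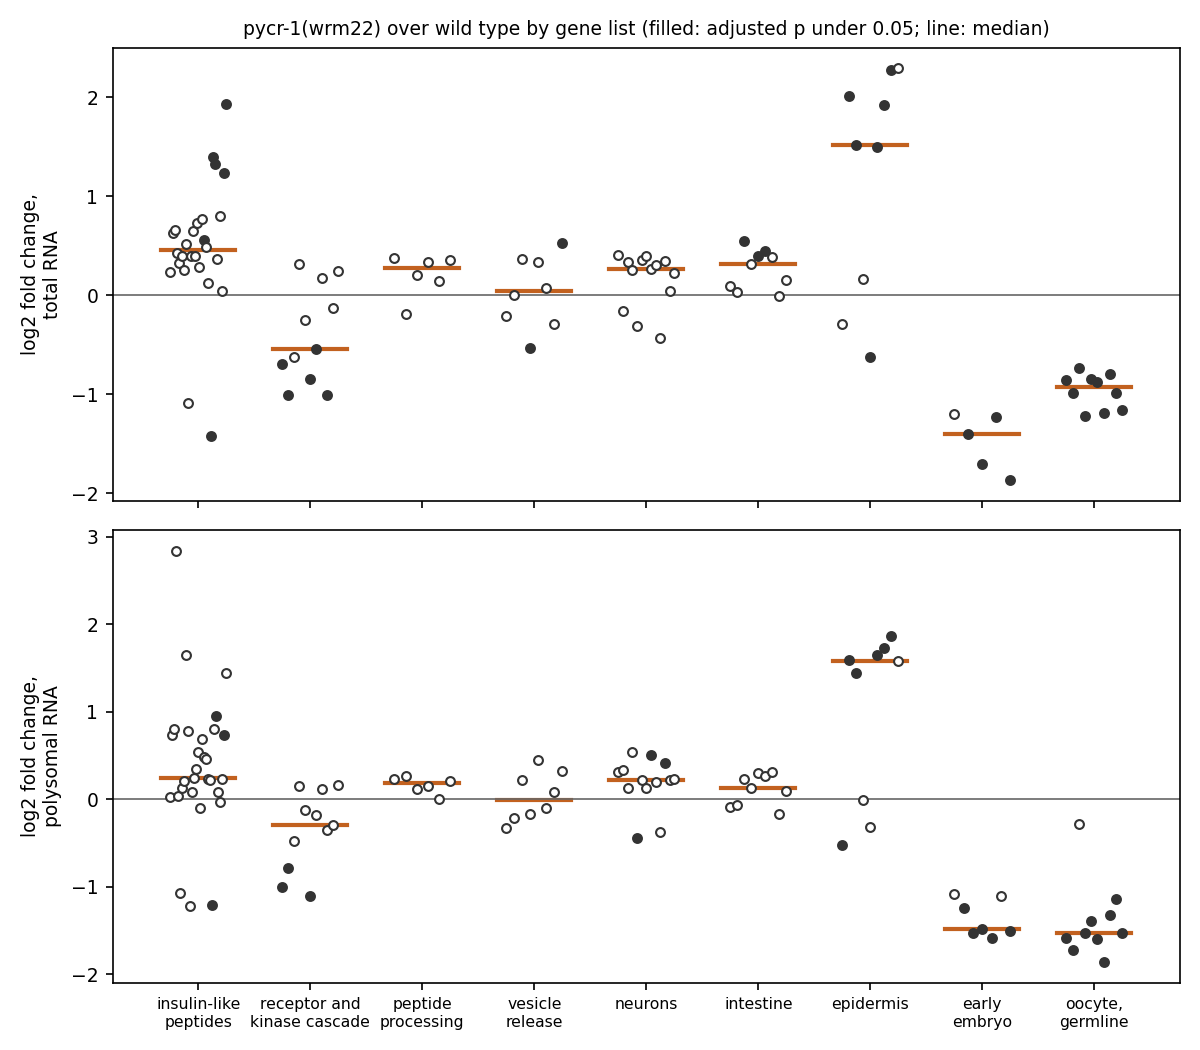
Log2 fold change of pycr-1(wrm22) over wild type in total RNA (top) and polysomal RNA (bottom) for the insulin-like peptide genes, 3 pathway lists and 5 tissue marker lists; each point is 1 gene of the authors' deposited table, filled points had an adjusted p under 0.05, and lines mark list medians. The peptide genes have medians of 0.45 and 0.24, the receptor cascade -0.54 and -0.30, and the oocyte and germline markers lie below 0.

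Marker genes of the tissues in the worms moved in part with these results, and in RNA of whole worms fewer cells of a type and less RNA per cell cannot be told apart. Neuronal markers, of which 13 of 14 were tested, gave 0 calls in total RNA between the strains and 2 higher and 1 lower in polysomal RNA. Their median log2 fold changes were 0.26 and 0.22, both above 0 like those of the members. Entries below 5 FPKM in at least 1 group, a class that holds many of these markers, had medians of 0.36 and 0.27. The summed levels of the neuronal markers, 132, 105, 118.9 and 94.8 FPKM, were carried by snb-1. That gene had 92.4, 59.9, 74.2 and 44.3 FPKM and was the marker called lower. Markers of sensory cilia and of the ASI or ASJ neurons, where daf-28 and ins-6 are known to be made, were at most at 2.92 FPKM; 3 of 8 were tested, and 1 of these (che-3) was higher in total RNA, and str-3 was listed at 0 in all groups but wild-type total RNA. Of 9 intestinal markers 3 were higher (ges-1, ifb-2 and cpr-1) and 0 lower in total RNA and 0 were called in polysomal RNA, with median log2 fold changes of 0.31 and 0.13. Their summed levels were 3240, 4511, 3480 and 4430 FPKM, of which asp-1 alone held between 2135 and 2498 FPKM. Of 9 epidermal markers 5 were higher in each fraction (dpy-7, dpy-13, mlt-10, ptr-4 and rol-6), with list medians of 1.51 and 1.58. The 1 called lower was lin-26 in total and col-19 in polysomal RNA. The summed level of this list was lower in the mutant-labelled groups, 1435 against 1329 FPKM in total and 2463 against 1947 FPKM in polysomal RNA. All 10 oocyte and germline markers were lower in total RNA and 9 of 10 in polysomal RNA, with sums of 2733, 1077, 1415 and 375 FPKM. In total RNA 4 of the 5 early embryo markers tested were lower and 0 higher, and 5 of 7 sperm markers were higher and 0 lower.

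Between the fractions, intestinal markers moved the way most called members did: 6 of 9 were higher in polysomal RNA in each strain and 0 lower, as were 3 of 6 body wall muscle markers. Oocyte and germline markers moved the other way, with 9 of 10 lower in wild type and 10 of 10 in the mutant-labelled strain. Neuronal markers were divided, with 2 higher and 4 lower of 13 in wild type and 3 higher and 3 lower in the mutant-labelled strain. The part of tissue makeup in the members' folds was not tested.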

How the data were processed

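RNA sequencing covered total and polysomal RNA of wild-type and pycr-1(wrm22) worms, in 14 libraries grouped by their titles. The tools were Cuffdiff 2.2.1, StringTie 1.3.4d, HISAT2 2.1.0 and FastQC 0.11.7 and the build was WBcel235, per the submitters' processing notes; settings are not given in the sources used here. The authors deposited 1 pooled FPKM per gene and group and, for 6 pairs of groups, a log2 fold change, a test statistic (a score), a p-value and a q-value. Pairs that differ in strain and fraction at once (2 of the 6) served only to solve variances. The deposited q-values equal Benjamini-Hochberg values over all 91924 tests to within 5.24e-07, and the smallest p-value is 5e-05. Deposited starts count from 0, and 1 was added. No values per library were at hand, so depth and replicate spread could not be computed.

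The SE after ± comes from the variance of each group's log FPKM, solved by least squares from the authors' test statistics over the pairs and divided by the 3 or 4 libraries. The strain difference between fractions was tested by a Wald test with undivided variances and, as an alternative, divided ones, with scripts tested on simulated data. Total and polysomal libraries of a strain were treated as independent. Values are given for members at 1 FPKM or more in any group or called in any comparison, and the members, role groups and lists were chosen with earlier results of these data known. Python 3.11.15, numpy 2.4.6, scipy 1.17.1, pandas 2.3.3, statsmodels 0.14.6 and matplotlib 3.10.9 were used.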

Additional observations from a re-analysis of the deposited data

How the results depend on the processing

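With an authors' q-value under 0.01, the members called between the strains in total RNA went from 6 to 3 (2 higher, 1 lower) and those between the fractions in the mutant-labelled strain from 11 to 5 (3 higher, 2 lower). That threshold left 2 of 3 between the strains in polysomal RNA and 6 of 8 between the fractions in wild type. Shares of all entries under 0.01 were not computed, so these counts have no background beside them. Under the other alternatives run, each count stayed within 1.5 times: 4 to 7 between the strains in total RNA, 2 to 4 in polysomal RNA, 8 to 9 between the fractions in wild type and 11 to 12 in the mutant-labelled strain. The counts with centred folds kept the authors' q-values, so they could not show calls gained or lost by centring. Some members not called, such as ins-17 (0.74, SE 0.22) and ins-26 (1.00, SE 0.30), had centred total RNA strain folds more than 2 SE above 0. From the authors' p-values and test statistics, ins-28 was called between the fractions in wild type when entries at 1 FPKM or more alone were adjusted (adjusted p = 0.0477) and by the Wald test with divided variances (adjusted p = 0.0422); with that Wald test ins-9 (adjusted p = 0.109) and ins-30 (adjusted p = 0.0503) lost their strain call in total RNA. With 1 FPKM added, 15 of 92 folds of named members moved by more than 1 SE, toward 0, and centring moved 15. Among called folds between the fractions, the added FPKM moved that of ins-31 in the mutant-labelled strain from 1.08 to 0.51. It also moved ins-24 from -1.50 to -1.12 in wild type and from -1.82 to -1.40 in the mutant-labelled strain. For ins-30 the same folds went from -1.52 to -1.14 and from -1.60 to -1.29. Those of daf-28 changed by less than 1 SE, from 0.88 to 0.54 in wild type and from 0.67 to 0.42 in the mutant-labelled strain. Centring took the total RNA strain fold of ins-30 from 0.56 to 0.91. Of the 92 folds, 3 changed sign when centred, none of them called, and 0 with either pseudocount. The strain difference between fractions gave 0 calls under each alternative run. No paired analysis was possible because values of single libraries were not at hand, and leaving out replicates was not run for the same reason. Levels this low rest on an unknown number of fragments, and fragments of similar or overlapping genes may be divided wrongly between them.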
